A study of Mus musculus with 12 samples.

Results

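The 10 genes described here belong to fibroblast growth factor (FGF) signalling and its main output, the kinase ERK. They are the ligand genes Fgf4 and Fgf5, the receptor genes Fgfr1 and Fgfr2, the feedback inhibitors Dusp6, Spry2 and Spry4, and the transcription factor genes Etv4, Etv5 and Egr1. All 10 had a probe set annotated to their symbol alone, and where a gene had several the one with the highest mean over 12 arrays was taken. They are 10 of 22180 genes measured in this way on whole-transcript mouse arrays. The cells were of K3, an embryonic stem (ES) cell line of the mouse, and the study asked which genes depend on ERRb, an orphan nuclear receptor whose gene is Esrrb. KO/ERRb-wt cells carried a knockout of Esrrb and a lentivirus expressing ERRb, KO/mock cells carried the knockout and were labelled mock, and WT/mock cells were wild type and labelled mock. Each group held 4 arrays, 2 from each of 2 clones: clones 12-1 and 12-3 for KO/ERRb-wt, 8-3 and 8-4 for KO/mock, and 5-2 and 5-5 for WT/mock. All groups shared the growth conditions: N2B27 medium with LIF and the kinase inhibitors CH99021 and PD0325901, then N2B27 with both inhibitors and doxycycline for 3 days before RNA extraction. With 2 clones a group, whatever else distinguishes the clones cannot be told apart from the genotype.

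FGFs are secreted proteins that bind receptor tyrosine kinases and, through RAS, RAF and MEK, switch on ERK. In mouse ES cells FGF4 is the main autocrine ligand, and the ERK activity it sustains prepares the cells to leave the naive state. ERK in turn raises the transcription of its own inhibitors, among them the phosphatase DUSP6 and the Sprouty proteins, and of ETS-family and early growth response factors, so these transcripts are commonly read as a measure of pathway activity. PD0325901 inhibits MEK, the kinase directly upstream of ERK, and CH99021 inhibits GSK3. Every value below was therefore taken with a MEK inhibitor present.

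The targeted gene itself, Esrrb, ran against its labels. In deposited log2 units its probe set read 6.99, 6.76, 6.50 and 6.68 on the arrays labelled KO/ERRb-wt, 7.48, 8.00, 7.74 and 7.41 on those labelled KO/mock, and 7.38 to 7.39 on those labelled WT/mock. KO/ERRb-wt differed from KO/mock (adjusted p = 0.00436) and from WT/mock (adjusted p = 0.00557), while KO/mock minus WT/mock did not pass (adjusted p = 0.324). The highest level was thus in a group labelled knockout, and the lowest in the group labelled as carrying ERRb. The sources used here do not say where the lesion lies or which part of the gene the virus carried, so the probe set may check neither label. All directions below are differences between arrays so labelled. The arrays were even in overall level, with medians from 5.00 to 5.07. The 8 ES cell markers included had a median log2 level of 10.8 in KO/ERRb-wt, 11.0 in KO/mock and 11.0 in WT/mock, and the 7 feeder fibroblast markers 5.29, 5.13 and 5.13, near the array medians. The ES cell marker Dppa5a was near them too, at 4.99 in KO/ERRb-wt, 4.98 in KO/mock and 4.90 in WT/mock. Of the 8 ES cell markers, only Nanog and Utf1 had an adjusted p under 0.05 in any comparison. They fell by 0.25 and 0.35 in KO/ERRb-wt against KO/mock and by 0.40 and 0.27 against WT/mock. The rest did not pass and went both ways, from -0.12 for Fbxo15 to 0.22 for Pou5f1 in KO/ERRb-wt against WT/mock. Of markers of other cell types, the feeder marker Thy1 (1 of 7) and the trophoblast marker Cdx2 (1 of 4) rose by 0.35 and 0.54 in KO/ERRb-wt against WT/mock. The neuroectoderm marker Sox1 (1 of 3) fell by 0.62 in KO/mock and by 0.67 in KO/ERRb-wt against WT/mock. Nes and Pax6, also on that list, did not pass. They differed from WT/mock by 0.09 and 0.13 in KO/mock and by 0.22 and -0.05 in KO/ERRb-wt. The part of these markers in the results below was not tested. Arrays measure a bulk culture, in which fewer cells of a type and less RNA per cell cannot be told apart.

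Fgf4 and Spry2 were lower and Fgfr2 was higher on the arrays labelled KO/mock than on those labelled WT/mock. The same 3 genes were called in the same directions when KO/ERRb-wt arrays were set against WT/mock, where Spry4 and Egr1 were higher as well. A gene was called at a Benjamini-Hochberg adjusted p under 0.05 over all probe sets in limma's linear model of the 3 groups. KO/mock against WT/mock called 3 of the 10 genes, beside 5.58% of all genes, with a median log2 difference of 0.22 over the 10 and 0.00 over all genes. KO/ERRb-wt against WT/mock called 5 of 10 beside 20.8% of all genes, with medians of 0.19 and 0.03. KO/ERRb-wt against KO/mock called 1 of 10, Egr1, beside 4.4% of all genes, with medians of 0.03 and 0.02. The shares of all genes include dim ones. With probe sets of a mean under 5 left out, KO/mock against WT/mock called 1752 of 12995 genes. KO/ERRb-wt then called 1458 against KO/mock and 5023 against WT/mock. The 3 comparisons share arrays in pairs, so a gene called in 2 of them is not thereby seen in independent samples.

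**Figure D1:**
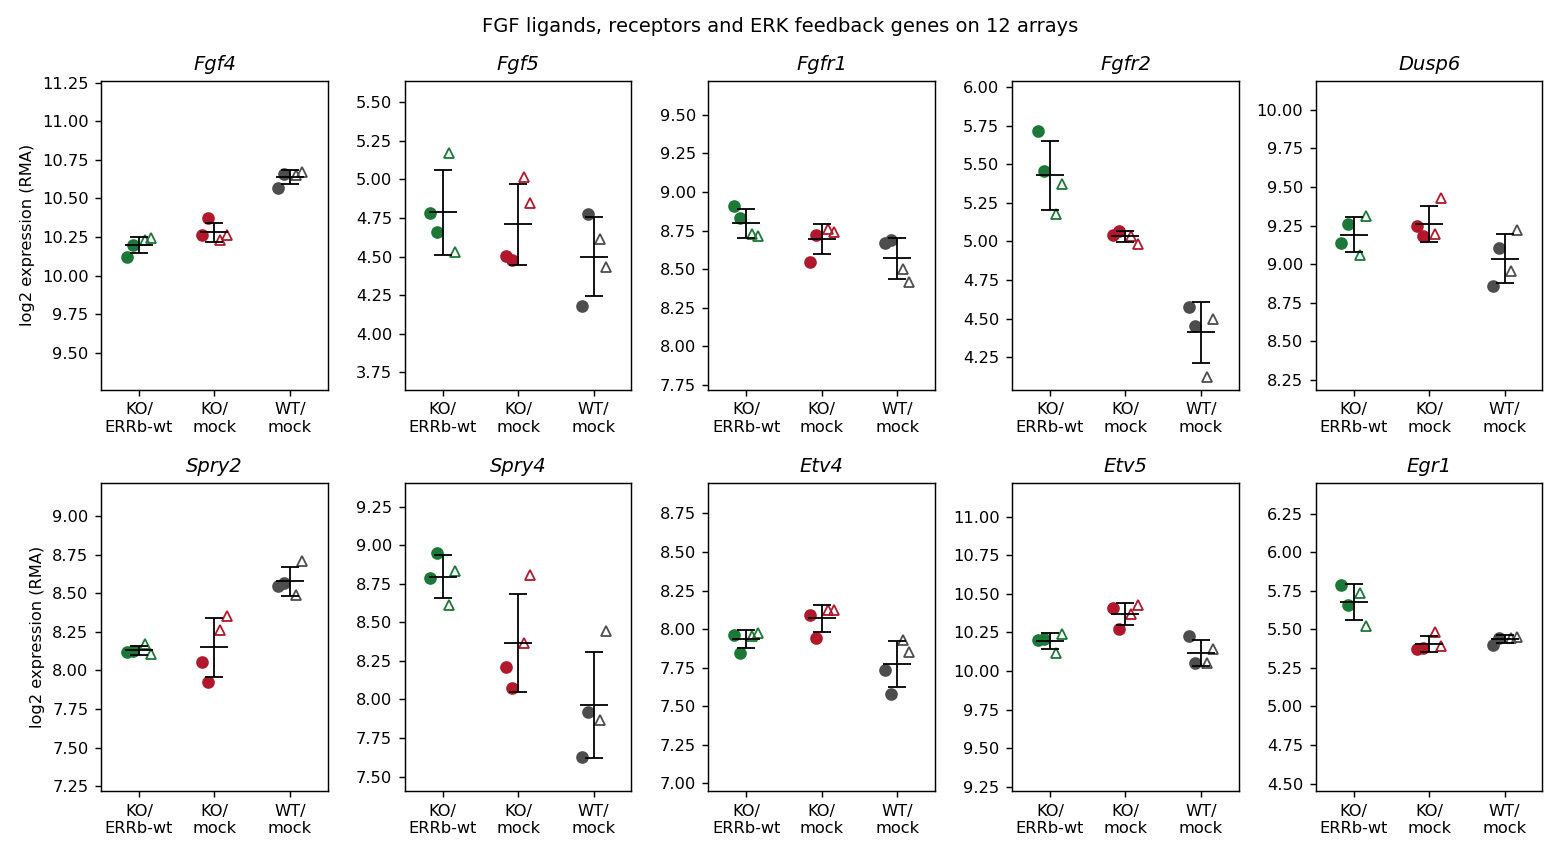
Log2 expression of the 10 genes on the 12 arrays, each panel spanning 2 log2 units and its groups running KO/ERRb-wt, KO/mock, WT/mock from left to right. Circles are the first clone of a group (12-1, 8-3, 5-2) and open triangles the second (12-3, 8-4, 5-5); bars give the mean ± SD of 4 arrays. In the Fgf4 and Spry2 panels the 4 WT/mock arrays lie above the other 8, and in the Fgfr2 panel they are the lowest 4.

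The promoters of Fgf4, Fgfr2 and Spry2, the genes called in both comparisons with WT/mock, are shown because ERRb is a DNA-binding factor and its target genes were the object of the study. The sequences are RefSeq's for the GRCm38.p6 build, 250 bases before to 50 after the annotated start, and a sequence was listed for 6 of the 10 genes. Capitals mark matches to 3 promoter motifs on either strand: the GC box GGGCGG, the CCAAT box, and the TATA-like repeat TATATA.
Fgf4, chr7:144861136-144861435, plus strand: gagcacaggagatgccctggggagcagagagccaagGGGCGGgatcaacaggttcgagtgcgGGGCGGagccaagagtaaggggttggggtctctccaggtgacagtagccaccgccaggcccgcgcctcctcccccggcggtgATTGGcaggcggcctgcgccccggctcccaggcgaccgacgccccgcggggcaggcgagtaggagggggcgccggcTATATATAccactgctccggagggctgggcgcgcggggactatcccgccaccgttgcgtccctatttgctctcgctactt
Fgfr2, chr7:130266759-130267058, minus strand: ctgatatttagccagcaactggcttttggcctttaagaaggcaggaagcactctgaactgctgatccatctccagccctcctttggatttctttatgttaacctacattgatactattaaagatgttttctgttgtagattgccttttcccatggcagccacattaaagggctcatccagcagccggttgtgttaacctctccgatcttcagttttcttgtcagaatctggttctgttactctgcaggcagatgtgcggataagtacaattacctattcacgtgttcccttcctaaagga
Spry2, chr14:105896770-105897069, minus strand: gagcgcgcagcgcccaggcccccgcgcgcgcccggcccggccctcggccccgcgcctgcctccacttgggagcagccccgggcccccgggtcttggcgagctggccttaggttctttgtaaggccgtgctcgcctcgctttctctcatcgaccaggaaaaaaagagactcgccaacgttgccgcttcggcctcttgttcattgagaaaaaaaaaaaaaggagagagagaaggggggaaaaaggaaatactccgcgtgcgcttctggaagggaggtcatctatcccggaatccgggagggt

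The Fgf4 window held 2 GC boxes, starting at positions -214 and -188 from the start, a CCAAT box on the opposite strand at -106, and TATATA in 2 overlapping copies at -30 and -28. The Spry2 and Fgfr2 windows held none of these letters. Of 32851 promoter windows of this length, 35.7% held a GC box, 37.4% a CCAAT box, 5.67% TATATA and 13.6% TATAAA, which was searched too and was in none of the 3 windows. The GC content was 69.7% for Fgf4, 62.7% for Spry2 and 43.7% for Fgfr2, beside a median of 52.7% over all windows. The ERR response element TCAAGGTCA, which 0.423% of all windows hold, was in no window of the 6 genes, nor was the half-site AAGGTCA contained in it, which 4.72% hold. The ETS site CCGGAAGT (3.89% of windows) and the Capicua sites TGAATGAA (1.3%) and TGAATGGA (1.21%) were also absent from those windows. These letters were looked for in the windows alone, and enhancers were not searched.

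**Figure D2:**
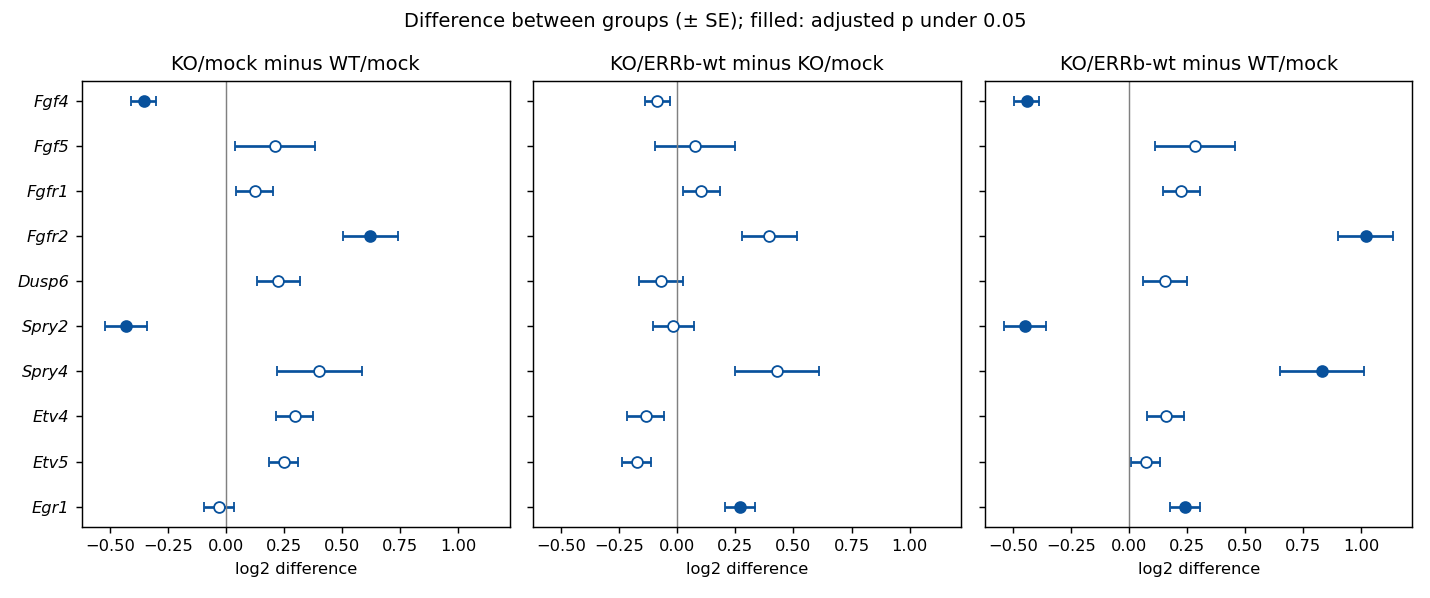
Log2 difference of each gene in the 3 comparisons, as the first-named group minus the second, with SE from the fit of 12 arrays; filled points passed the adjusted p of 0.05. Fgf4 and Spry2 lie left of 0 and Fgfr2 right of 0 in both comparisons with WT/mock, and the points between KO/ERRb-wt and KO/mock lie from -0.17 to 0.43.

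Among the ligands, Fgf4, the autocrine FGF of ES cells, read 10.12, 10.20, 10.23 and 10.24 on the arrays labelled KO/ERRb-wt. It read 10.26, 10.37, 10.23 and 10.26 on those labelled KO/mock and 10.57, 10.66, 10.65 and 10.67 on those labelled WT/mock. All 8 arrays labelled knockout lay below the 4 WT/mock arrays, while KO/ERRb-wt and KO/mock overlapped. In log2 units Fgf4 fell by 0.35 ± 0.06 (SE, 4 arrays a group) in KO/mock against WT/mock, to 0.782 of the WT/mock level (limma, adjusted p = 0.00393). In KO/ERRb-wt against WT/mock the difference was -0.44 ± 0.06 (adjusted p = 0.000293). Between KO/ERRb-wt and KO/mock it was -0.09 ± 0.06 and did not pass (adjusted p = 0.437). Both calls held without any single array. Without clone 8-4 the KO/mock call ended (-0.32, adjusted p = 0.0637).

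Fgf5, a ligand that marks the formative and primed epiblast, was low throughout, at 4.53 to 5.17 in KO/ERRb-wt, 4.48 to 5.01 in KO/mock and 4.18 to 4.77 in WT/mock. Its mean over the 12 arrays exceeded that of 42.9% of probe sets, and no detection call accompanies the deposited values. The groups overlapped in all 3 comparisons. KO/mock minus WT/mock was 0.21 ± 0.17 (adjusted p = 0.65), the difference of KO/ERRb-wt from KO/mock 0.08 ± 0.17 (adjusted p = 0.86) and that from WT/mock 0.29 ± 0.17 (adjusted p = 0.316).

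Of the receptors, Fgfr2, the receptor tyrosine kinase that in the blastocyst marks the primitive endoderm lineage, read 5.71, 5.45, 5.17 and 5.37 on the arrays labelled KO/ERRb-wt. It read 5.04, 5.07, 5.04 and 4.98 on those labelled KO/mock and 4.57, 4.45, 4.12 and 4.50 on those labelled WT/mock. The 3 groups did not overlap: every KO/ERRb-wt array lay above every KO/mock array, and every KO/mock array above every WT/mock array. Fgfr2 rose by 0.62 ± 0.12 in KO/mock against WT/mock (adjusted p = 0.0125) and by 1.02 ± 0.12, or 2.02-fold, in KO/ERRb-wt against WT/mock (adjusted p = 0.000172). The further difference of 0.40 ± 0.12 between KO/ERRb-wt and KO/mock did not pass (adjusted p = 0.0949). Groups that do not overlap were common, at 15.9% of all genes in KO/mock against WT/mock, and in KO/ERRb-wt at 17% against KO/mock and 28.5% against WT/mock.

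The Fgfr2 level was close to the array medians, above 48.5% of probe sets, so how much of it is signal over background is not known. Without clone 8-3 or without clone 8-4 the call between KO/mock and WT/mock ended (adjusted p = 0.0737 and 0.0908) with differences of 0.60 and 0.65. Of 6 primitive endoderm markers, 0 were called higher in any of the comparisons. Of all genes, 2.11% were called higher in KO/mock against WT/mock. In KO/ERRb-wt 1.24% were called higher against KO/mock and 8.82% against WT/mock. Summed on the linear scale the 6 markers lay at 262 to 296 in KO/ERRb-wt, 273 to 308 in KO/mock and 308 to 332 in WT/mock. Gata4, on chromosome 14, was the single marker called in KO/mock against WT/mock, at -0.51 ± 0.10 (adjusted p = 0.0119). Sox7, another of the 6 and also on chromosome 14, went the other way there, at 0.43 ± 0.14, and did not pass (adjusted p = 0.121). Sox7 was called lower in KO/ERRb-wt against KO/mock, at -0.64 ± 0.14 (adjusted p = 0.0301). Gata4 was called lower in KO/ERRb-wt against WT/mock as well, at -0.56 ± 0.10 (limma, adjusted p = 0.00223). Gata6, Sox17, Foxa2 and Pdgfra did not pass in any comparison. Fgfr1, the main FGF receptor gene of ES cells, read 8.91, 8.83, 8.73 and 8.71 in KO/ERRb-wt, 8.55, 8.72, 8.76 and 8.74 in KO/mock, and 8.67, 8.69, 8.50 and 8.42 in WT/mock. No difference passed. The widest, of KO/ERRb-wt from WT/mock, was 0.23 ± 0.08 (adjusted p = 0.0843) and separated the 4 arrays of each group by a narrow margin. It passed with quantile normalization (0.26, adjusted p = 0.0453), without dim probe sets (adjusted p = 0.0471) and without clone 5-2 (adjusted p = 0.0433).

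The Sprouty genes encode inhibitors that act between the receptor and RAF. Spry2 read 8.12, 8.13, 8.17 and 8.10 on the arrays labelled KO/ERRb-wt, 8.05, 7.93, 8.26 and 8.35 on those labelled KO/mock, and 8.54, 8.57, 8.49 and 8.71 on those labelled WT/mock. All arrays labelled knockout lay below those labelled WT/mock, and clone 8-3 was lower than clone 8-4 within KO/mock. Spry2 fell by 0.43 ± 0.09 in KO/mock against WT/mock (adjusted p = 0.0203), and the difference was -0.45 ± 0.09 in KO/ERRb-wt against WT/mock (adjusted p = 0.00534). KO/ERRb-wt and KO/mock differed by -0.02 ± 0.09 (adjusted p = 0.942). The KO/mock call ended without replicate 1 or replicate 2 of WT/mock clone 5-2 or replicate 1 of KO/mock clone 8-3 (adjusted p = 0.0546, 0.054 and 0.0603), and with only the 2 groups in the fit (adjusted p = 0.0677). Without clone 8-3 the difference was -0.27 (adjusted p = 0.0936), and the call ended too without clone 5-2 or clone 5-5 (adjusted p = 0.124 and 0.0691).

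Spry2 lies on chromosome 14, whose genes were lower as a group on the arrays labelled knockout. Over the 341 others on that chromosome whose mean log2 level was 6 or more, the median difference from WT/mock was -0.41 in KO/mock and -0.48 in KO/ERRb-wt, beside 0.03 and -0.01 for genes of the other chromosomes. Spry2 lay 0.02 below the chromosome 14 median in the first comparison (a difference of -0.0235) and 0.03 above it in the second (0.0306). Of those 341 genes, 45.5% were lower than Spry2 in the first and 54.5% in the second. Among these genes Spry2 was thus near the middle in both. Counting all 788 other chromosome 14 genes, dim ones included, the medians were -0.14 and -0.11, and 22.2% and 26.6% of genes were lower than Spry2. Whether the Spry2 difference has the source of the chromosome's was not tested.

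**Figure D3:**
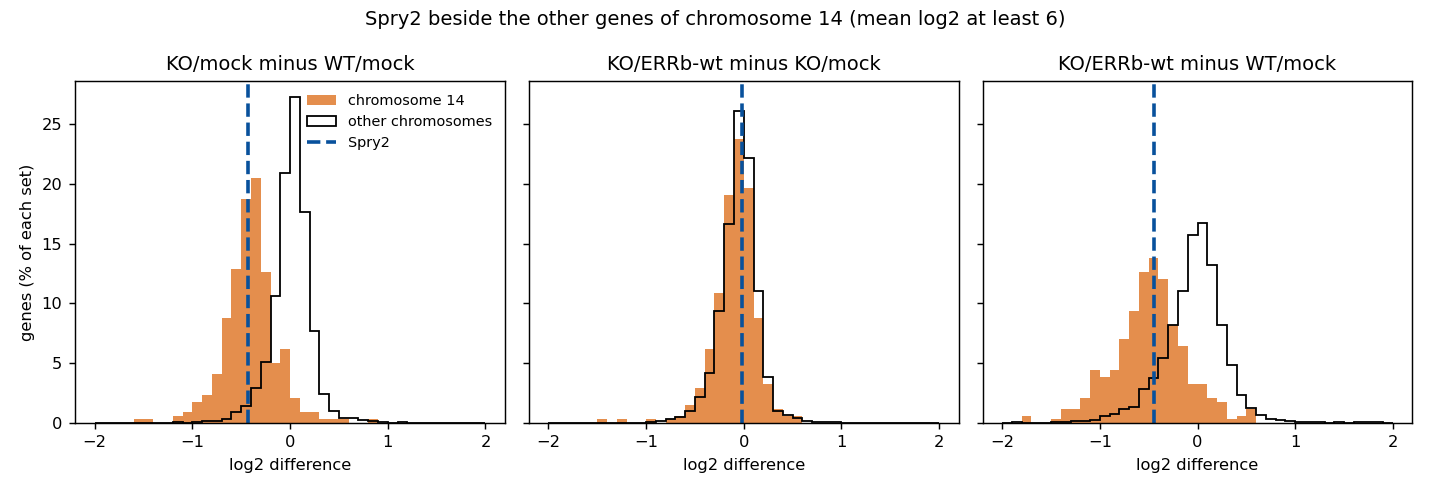
Share of genes at each log2 difference (bins of 0.1) for chromosome 14 genes other than Spry2 (orange) and genes of the other chromosomes (black outline), all at a mean log2 level of 6 or more, with Spry2 as the dashed line. In both comparisons with WT/mock the dashed line stands near the centre of the orange histogram, which is shifted left of the outline; between KO/ERRb-wt and KO/mock the histograms overlie each other.

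Spry4, the other Sprouty gene of the 10, went the opposite way. It read 8.79, 8.95, 8.62 and 8.83 on the arrays labelled KO/ERRb-wt, 8.21, 8.08, 8.37 and 8.81 on those labelled KO/mock, and 7.63, 7.92, 7.87 and 8.44 on those labelled WT/mock. KO/ERRb-wt did not overlap WT/mock, while KO/mock spanned the interval between them and overlapped both. Spry4 rose by 0.83 ± 0.18, or 1.78-fold, in KO/ERRb-wt against WT/mock (adjusted p = 0.00872). The 2 steps that make it up, 0.40 ± 0.18 for KO/mock minus WT/mock and 0.43 ± 0.18 for KO/ERRb-wt minus KO/mock, did not pass (adjusted p = 0.302 and 0.231). The 2 arrays of a clone lay furthest apart in clone 5-5, at 7.87 and 8.44. Without clone 5-2 or without clone 12-1 the call ended, at 0.64 (adjusted p = 0.0974) and 0.76 (adjusted p = 0.0627).

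Dusp6, the phosphatase that removes the activating phosphates from ERK, is among the most direct transcriptional readouts of the pathway. It read 9.14, 9.26, 9.06 and 9.31 in KO/ERRb-wt, 9.24, 9.18, 9.19 and 9.43 in KO/mock, and 8.86, 9.11, 8.96 and 9.22 in WT/mock. The groups overlapped in all 3 comparisons. KO/mock minus WT/mock was 0.23 ± 0.09 (adjusted p = 0.254), the difference of KO/ERRb-wt from KO/mock -0.07 ± 0.09 (adjusted p = 0.744) and that from WT/mock 0.16 ± 0.09 (adjusted p = 0.316). A second Dusp6 probe set, dim at a mean of 3.43, gave 0.18, -0.01 and 0.17 and did not pass either.

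Etv4 and Etv5 encode closely related ETS-family transcription factors that are induced by FGF. Etv4 read 7.96, 7.85, 7.95 and 7.97 in KO/ERRb-wt, 8.09, 7.94, 8.13 and 8.12 in KO/mock, and 7.74, 7.58, 7.93 and 7.85 in WT/mock. Etv5 read 10.20, 10.21, 10.12 and 10.24 in KO/ERRb-wt, 10.41, 10.27, 10.37 and 10.43 in KO/mock, and 10.23, 10.05, 10.05 and 10.14 in WT/mock. For both genes the 4 KO/mock arrays lay above the 4 WT/mock arrays, by differences of 0.30 ± 0.08 for Etv4 and 0.25 ± 0.06 for Etv5 that just missed the threshold (adjusted p = 0.0651 and 0.0519).

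Both Etv genes passed in KO/mock against WT/mock when probe sets with a mean under 5 were left out (adjusted p = 0.0335 for Etv4 and 0.0257 for Etv5), or without KO/mock clone 8-3 replicate 2 (adjusted p = 0.047 and 0.0372), which raised the count of called genes from 3 to 5. Etv4 also passed without replicate 1 of WT/mock clone 5-5 (adjusted p = 0.0444) or without that whole clone (0.41, adjusted p = 0.0201), and Etv5 with no clone block (adjusted p = 0.0454). KO/ERRb-wt minus KO/mock gave -0.14 ± 0.08 for Etv4 and -0.17 ± 0.06 for Etv5 (adjusted p = 0.386 and 0.161), and KO/ERRb-wt minus WT/mock 0.16 ± 0.08 and 0.07 ± 0.06 (adjusted p = 0.218 and 0.505). Without clone 5-5 that last Etv4 difference was 0.27 and passed (adjusted p = 0.0477). A dimmer second Etv5 probe set, at a mean of 6.08, gave 0.05 ± 0.10 for KO/mock minus WT/mock (adjusted p = 0.898).

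Egr1, an immediate-early zinc finger gene that ERK switches on through serum response factor, was low on all arrays, at a mean above that of 58% of probe sets. It read 5.79, 5.66, 5.74 and 5.52 on the arrays labelled KO/ERRb-wt, 5.37, 5.38, 5.48 and 5.39 on those labelled KO/mock, and 5.40, 5.45, 5.44 and 5.45 on those labelled WT/mock. The 4 KO/ERRb-wt arrays lay above the other 8. Egr1 rose by 0.27 ± 0.06 in KO/ERRb-wt against KO/mock (adjusted p = 0.045) and by 0.24 ± 0.06 against WT/mock (adjusted p = 0.0245), and KO/mock minus WT/mock was -0.03 ± 0.06 (adjusted p = 0.898).

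The Egr1 call against KO/mock ended when any of 10 of the 12 arrays was left out, that is any but KO/mock clone 8-4 replicate 1 and KO/ERRb-wt clone 12-3 replicate 2, with adjusted p up to 0.105. It ended with quantile normalization (0.27, adjusted p = 0.0511) and with median centring of the arrays (0.24, adjusted p = 0.0628) as well, and without any one of the 6 clones (adjusted p up to 0.241). The call against WT/mock ended without replicate 1 or replicate 2 of WT/mock clone 5-2, or replicate 1 of KO/ERRb-wt clone 12-1 or of clone 12-3 (adjusted p up to 0.0683), and with median centring (adjusted p = 0.0536) or only the 2 groups in the fit (adjusted p = 0.053). It ended as well without clone 5-2, clone 5-5 or clone 12-1 (adjusted p = 0.131, 0.0683 and 0.125).

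Within a label, none of the 10 genes was called between the 2 clones of KO/ERRb-wt, KO/mock or WT/mock in limma (2 arrays against 2, lowest adjusted p = 0.758, 0.569 and 0.596), where 0, 2 and 0 of 22180 genes were called. At an unadjusted p under 0.05, 0, 1 and 2 of the 10 differed. The 1 in KO/mock was Spry2, 0.31 ± 0.09 higher in clone 8-4 than in clone 8-3. The 2 in WT/mock were Fgfr1, 0.22 ± 0.08 lower in clone 5-5 than in clone 5-2, and Etv4, 0.23 ± 0.09 higher. When the 2 arrays of each clone were averaged first, leaving 2 clones against 2, Fgf4 and Fgfr2 were called in KO/ERRb-wt against WT/mock (adjusted p up to 0.0354) and no gene of the 10 in the other comparisons, where 10 and 0 of 41345 probe sets were called.

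The other genes of the pathway gave a mixed picture: in KO/ERRb-wt against WT/mock every list held calls in both directions. Of 91 genes listed, 82 were measured. KO/mock against WT/mock called 9 of them, 2 higher and 7 lower, KO/ERRb-wt against KO/mock 4, 1 higher and 3 lower, and KO/ERRb-wt against WT/mock 23, 12 higher and 11 lower. As shares of all genes, 2.11% were called higher and 3.47% lower in the first comparison, 1.24% and 3.17% in the second, and 8.82% and 12% in the third. The median log2 difference of the 82 was -0.00387, 0.05 and 0.05 in the 3 comparisons. With chromosome 14 left out, which was decided after the data had been seen, 75 were tested and 4 were called in KO/mock against WT/mock. Of the 9 called before, only Extl3, Ndst2 and Il17rd lie on that chromosome, so calls of genes elsewhere ended too.

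The feedback regulators beyond the members held the widest difference of the 82 genes. Dusp9, an X-linked ERK phosphatase gene expressed in ES cells, lay at 6.81 to 6.94 on the arrays labelled KO/ERRb-wt, 7.34 to 7.74 on those labelled KO/mock and 7.76 to 8.20 on those labelled WT/mock. The 3 groups did not overlap. Dusp9 fell by 0.44 ± 0.11 in KO/mock against WT/mock (adjusted p = 0.0421), by 0.70 ± 0.11 in KO/ERRb-wt against KO/mock (adjusted p = 0.00647) and by 1.13 ± 0.11 in KO/ERRb-wt against WT/mock (adjusted p = 4.27e-05). Il17rd, a chromosome 14 gene for the FGF antagonist also called Sef, lay at 8.43 to 8.58, 8.02 to 8.26 and 8.38 to 8.61 in the same groups, so that it was low in KO/mock alone. It fell by 0.32 ± 0.07 in KO/mock against WT/mock (adjusted p = 0.0341) and rose by 0.37 ± 0.07 in KO/ERRb-wt against KO/mock (adjusted p = 0.0222). KO/ERRb-wt minus WT/mock was 0.05 ± 0.07 for Il17rd (adjusted p = 0.703), where the median of the 341 chromosome 14 genes was -0.48. Etv1, Dusp5 and the RAS-ERK inhibitor gene Spred1 rose by 0.54, 0.39 and 0.34 in KO/ERRb-wt against WT/mock. In all, 2, 2 and 4 of the 11 feedback regulators measured were called in the 3 comparisons, with median differences of 0.07, 0.13 and 0.05. Of all genes, 5.58%, 4.4% and 20.8% were called.

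Among 20 other FGF ligand genes, Fgf11, which encodes an intracellular FGF homologous factor, was lower on arrays of the KO/ERRb-wt label, at 6.54 to 6.99, than on those labelled KO/mock, at 7.37 to 7.83, or WT/mock, at 7.39 to 7.71. It fell by 0.87 ± 0.12 in KO/ERRb-wt against KO/mock (adjusted p = 0.00482) and by 0.85 ± 0.12 against WT/mock (adjusted p = 0.000779). Fgf17, a secreted ligand gene on chromosome 14, differed by -0.60 and Fgf20 by 0.24 in KO/ERRb-wt against WT/mock. No ligand of the 20 was called in KO/mock against WT/mock in limma, beside 5.58% of all genes. There 1 of the 20 had an unadjusted p under 0.05, beside 4509 of all 22180 genes.

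Heparan sulfate is the sugar chain that FGFs need for receptor binding. Of 16 measured genes for other receptors, co-receptors and heparan sulfate synthesis, 3, 1 and 7 were called in the 3 comparisons. The shares called of all genes were 5.58%, 4.4% and 20.8%. The X-linked glypican gene Gpc3, a heparan sulfate carrier, lay at 7.08 to 7.15 in KO/ERRb-wt, 7.36 to 7.71 in KO/mock and 6.68 to 6.72 in WT/mock. It rose by 0.80 ± 0.07 in KO/mock against WT/mock (adjusted p = 0.000219), fell by 0.38 ± 0.07 in KO/ERRb-wt against KO/mock (adjusted p = 0.0189) and was 0.42 ± 0.07 above WT/mock in KO/ERRb-wt (adjusted p = 0.00211). The heparan sulfate enzyme genes Extl3 and Ndst2, both on chromosome 14, fell by 0.61 and 0.41 in KO/mock against WT/mock and by 0.79 and 0.46 in KO/ERRb-wt against WT/mock. In the last comparison Hs6st1 fell by 0.30 and the syndecan gene Sdc1 and the enzyme gene Ext1 rose by 0.29 and 0.34; Sdc4 was called too.

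In the RAS and ERK cascade, 16 of 23 genes were measured. Of these 1, 0 and 5 were called in the 3 comparisons, beside 5.58%, 4.4% and 20.8% of all genes. In KO/ERRb-wt against KO/mock, where 0 were called, 4 of the 16 had an unadjusted p under 0.05, beside 4816 of all 22180 genes. Map2k2, which encodes MEK2, a target of PD0325901, rose by 0.31 ± 0.08 in KO/mock and by 0.33 ± 0.08 in KO/ERRb-wt against WT/mock (adjusted p = 0.0482 and 0.0141). Rps6ka3, an ERK-activated kinase gene, the RAS exchange factor gene Sos2, the RAS inhibitor gene Rasa1 and the adaptor gene Gab1 fell by 0.51, 0.48, 0.27 and 0.20 in KO/ERRb-wt against WT/mock. Of 19 other immediate-early and ERK target genes, 3, 0 and 4 were called, beside the same shares of all genes. In KO/ERRb-wt against KO/mock, 5 of the 19 had an unadjusted p under 0.05, beside the same 4816 genes. Jun fell by 0.62 ± 0.07 in KO/mock and by 0.57 ± 0.07 in KO/ERRb-wt against WT/mock (adjusted p = 0.000687 and 0.000327). Nr4a1 and Btg2 fell by 0.45 and 0.37 in KO/mock against WT/mock, and Myc, Egr2 and the cyclin gene Ccnd1 rose by 0.67, 0.38 and 0.38 in KO/ERRb-wt against WT/mock.

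**Figure D4:**
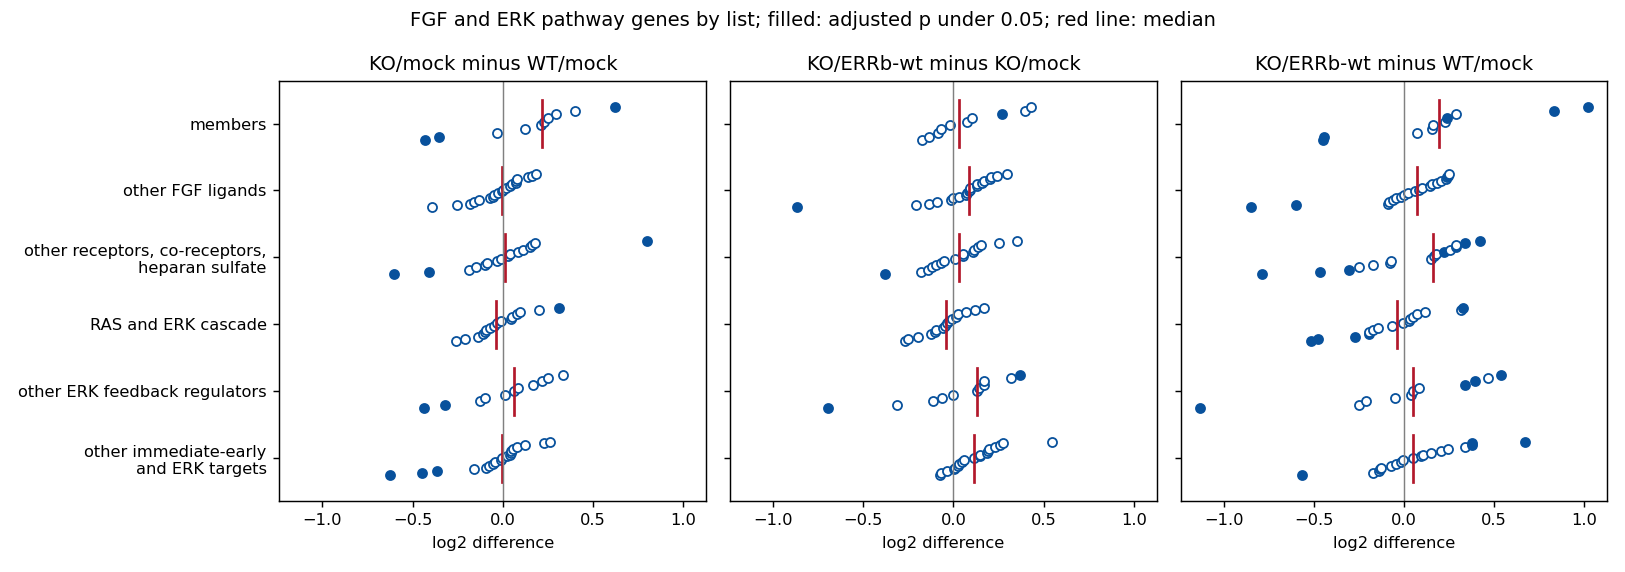
Log2 differences of the 10 genes (top row) and of the other pathway genes by list in the 3 comparisons, filled where the adjusted p was under 0.05, with the list median as a red line. In the comparison of KO/ERRb-wt with WT/mock the called points of every list lie on both sides of 0, and over all 3 comparisons the list medians stay within 0.22 of it.

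Several of these pathway calls ended when 1 array was left out. In KO/mock against WT/mock, Map2k2 then differed by 0.259 to 0.361 and Dusp9 by -0.513 to -0.367. Leaving out WT/mock clone 5-2 replicate 1 or WT/mock clone 5-2 replicate 2 ended the KO/mock against WT/mock calls of Btg2, Dusp9, Il17rd, Map2k2, Ndst2 and Nr4a1, whose highest adjusted p without an array were 0.086, 0.124, 0.0921, 0.128, 0.0976 and 0.0955. Among the other 10 arrays, 4, 8, 5, 9, 3 and 3 did so too. With 1 array left out, 3 to 9 pathway genes were called in this comparison, the lowest count without either array of WT/mock clone 5-2 or replicate 1 of KO/mock clone 8-4, and 4 or 5 without replicate 1 of WT/mock clone 5-5, replicate 1 of KO/mock clone 8-3 or replicate 2 of KO/mock clone 8-4. In KO/ERRb-wt against KO/mock, either array of KO/mock clone 8-3 and replicate 2 of KO/ERRb-wt clone 12-1 each ended the call of Il17rd (up to 0.0646). In KO/ERRb-wt against WT/mock, 7 arrays ended that of Egr2, 8 that of Fgf20, 7 that of Myc, 4 that of Sdc4 and 1, WT/mock clone 5-2 replicate 1, that of Gab1 (adjusted p up to 0.11, 0.105, 0.109, 0.0641 and 0.0539). The calls named above of Gpc3, Extl3, Jun, Fgf11, Fgf17, Dusp5, Spred1, Etv1, Ext1, Sdc1, Hs6st1, Ccnd1, Rps6ka3, Sos2 and Rasa1 held without any single array. Among these genes, leaving out a clone ended the KO/ERRb-wt against WT/mock calls of Etv1, Ext1, Sdc1, Ccnd1, Sos2, Rasa1 and Spred1. Their adjusted p rose up to 0.167, 0.123, 0.103, 0.0505, 0.0823, 0.0953 and 0.0693. A clone left out also ended the KO/ERRb-wt against KO/mock calls of Gpc3, Fgf11 and Dusp9 (up to 0.0936, 0.0647 and 0.0791). The Map2k2 and Ndst2 calls in KO/ERRb-wt against WT/mock ended in this way too (up to 0.095 and 0.0608). The calls of Extl3, Jun, Fgf17, Dusp5, Hs6st1 and Rps6ka3 held without any single clone too.

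For the 5 genes called at least once, the genes most alike in pattern over the 12 arrays were sought among 9215 genes averaging a log2 level of 6 or more. Genes with names of predicted or provisional models, microRNAs, small nucleolar RNAs, or olfactory or vomeronasal receptors had been left out. The most alike were Platr14 (Pearson r = 0.988) and Zfp219 (0.987) for Fgf4, Dnajc25 (0.955) and Flcn (0.954) for Fgfr2, Supt16 (0.943) and Kat6b (0.941) for Spry2, Dido1 (0.98) and Spen (0.969) for Spry4, and Pik3cb (0.954) and Fnta (0.952) for Egr1. Zfp219, Supt16 and Kat6b lie on chromosome 14, so both genes most like Spry2 share its chromosome. These coefficients describe arrays that fall into 3 groups and carry no test.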

How the data were processed

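The authors' deposited table gives log2 expression of 41345 probe sets on 12 Affymetrix MoGene 2.0 ST arrays, which the submitters' processing notes credit to RMA in Expression Console, with no version or genome build named. RMA equalises the distributions of the arrays, hiding any shift common to most genes. Without scanner files, no detection call accompanies a value. Precision rests on the number of clones and arrays. Both arrays of a clone are labelled biological replicates, but separate cultures are not stated, so p-values measure the spread between these arrays.

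Gene names came from the platform annotation, which can be old: 23521 probe sets had 1 symbol, 1814 several and 16010 none, giving 22180 genes. Chromosomes, for 21991 genes, and promoters came from RefSeq (GRCm38.p6).

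All arrays entered 1 model of the 3 groups (limma 3.58.1, statmod 1.5.0, R 4.3.3) with clone as a random block (correlation 0.0286), two-sided, adjusted by Benjamini-Hochberg over all probe sets and tested on simulated data. The simulated arrays had independent noise with no clone effect, so they could not check how the model handles clones. Clones of a label were compared with the 6 clones as groups. The alternatives were no clone block, clone averages, a replicate block, 2 groups only, quantile normalization, median centring, no dim probe sets, all probe sets of a gene averaged, and each array or clone left out.

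The 10 genes, the lists of other pathway genes and the rule for named genes (all 10, every list gene called, and for each called member the 2 most alike genes) were chosen with earlier results of these data known.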

Additional observations from a re-analysis of the deposited data

Results flagged for a closer look

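Of 30 sets of 4 arrays (10 genes in 3 groups), 2 held an array far from the other 3; by chance about 1 set in 20 would. Etv4 read 7.85 on KO/ERRb-wt clone 12-1 replicate 2, below the other KO/ERRb-wt arrays, with a gap of 0.835 of the group's range. Egr1 read 5.48 on KO/mock clone 8-4 replicate 1, above the other KO/mock arrays, with a gap of 0.836 of the range.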

How the results depend on the processing

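For the 10 genes, 734 of 801 differences kept their direction and their side of the threshold under the alternatives, 47 lost a call, 11 gained one and 9 changed sign, none of them called. KO/mock minus WT/mock called 3 of the 10 genes. It called 0 with clone averages, 1 without clone 8-3, 1 without clone 8-4, and 2 to 5 with an array left out. The 9 other pathway genes became 0 with clone averages, 4 without chromosome 14 genes, 4 with only the 2 groups in the fit, 3 without clone 5-2, 5 without clone 8-3, 4 without clone 8-4 and 3 to 9 with an array left out. KO/ERRb-wt minus KO/mock called 1, which became 0 with clone averages, quantile normalization, median centring, only the 2 groups, or any clone left out, and 0 to 1 with an array left out. Its 4 pathway genes became 0 with clone averages, 0 without clone 8-3, 2 without clone 12-1 and 0 without clone 12-3. KO/ERRb-wt minus WT/mock called 5, which became 2 with clone averages and 3 without clone 12-1. Its 23 pathway genes became 8 with clone averages, 10 without clone 5-2 and 13 without clone 12-3. Fewer arrays or clones entered the fits that left them out or averaged them; for the other settings the cause was not tested.

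Sign changes were in small differences. Fgf5 became -0.00909 in KO/mock minus WT/mock without clone 8-4, and in KO/ERRb-wt minus KO/mock -0.143 without clone 8-3 and -0.051 to 0.176 with an array left out. Spry2 became 0.0331 with quantile normalization and 0.14 without clone 8-4 in KO/ERRb-wt minus KO/mock, and -0.0915 to 0.0482 with an array left out. Egr1 became 0.00072 in KO/mock minus WT/mock without clone 8-3. Relative to all chromosome 14 genes, dim ones included, Spry2 lay at -0.29 in KO/mock minus WT/mock and -0.34 in KO/ERRb-wt minus WT/mock. Over all probe sets, the share of higher calls between KO/ERRb-wt and KO/mock was 30.4% in the deposited values, 42.2% after quantile normalization and 21.5% after median centring. Their number, 1329, became 777 with only the 2 groups and 0 with clone averages; the 1602 calls of KO/mock against WT/mock became 10 and the 6460 of KO/ERRb-wt against WT/mock 2251 with clone averages.

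Replicate numbers 1 and 2 are given within clones, and the labels do not say whether a number marks a shared culture or batch. Deviations of same-numbered arrays from different groups correlated at 0.03 on average (-0.07 to 0.19 over 24 pairs). Those of other-numbered arrays from different groups correlated at -0.02 on average (-0.15 to 0.09 over 24 pairs). With the replicate block 3, 1 and 5 of the 10 genes were called, as without it.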
